A study of Mus musculus with 18 samples.

Results

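Imprinted genes are expressed from the chromosome of 1 parent. At several of them a short imprinted transcript starts inside an intron of a longer host gene, and 5 such pairs are described here: Nap1l5 in Herc3, Nnat in Blcap, Mcts2 in H13, an internal transcript of Inpp5f in Inpp5f itself, and Peg13 in Trappc9. They are 9 of the 35858 genes of the annotation that the authors deposited, taken by name, and the inner transcripts are called retrogenes here as a working name. The annotation gives a single exon for Nap1l5, Mcts2 and Peg13, as for a retrotransposed copy, whereas Nnat transcripts have 2 to 4 exons and the internal Inpp5f transcript has 6. Whether each of them arose by retrotransposition was not examined.

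At an imprinted gene of this kind the start of the inner transcript lies in a CpG-rich region that is methylated on 1 parental chromosome and carries histone H3 lysine 9 trimethylation (H3K9me3) on the methylated copy. The zinc finger protein ZFP57 binds the methylated core motif TGCCGC in such regions and recruits TRIM28/KAP1 and the H3K9 methyltransferase SETDB1. UHRF1 brings the maintenance DNA methyltransferase DNMT1 to newly replicated DNA, and DHX9 is an RNA and DNA helicase.

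H3K9me3 was measured by ChIP-seq in E14TG2a cells, a mouse embryonic stem cell (mESC) line, grown in serum with LIF. Each of the groups WT, Uhrf1 KO and Dhx9 KO had 2 libraries. These are 6 of 18 samples, and the other 12 were not analysed here. The Uhrf1 KO cells came from single-cell clones made with CRISPR-Cas9 in mESCs that carry a tetO-eGFP reporter with TetR-KRAB. The authors describe the WT cells compared with them as carrying the reporter too. The titles of these samples do not say whether doxycycline, which releases TetR-KRAB from the reporter, was present. Which clone each library represents, and how the Dhx9 KO cells were made, is not given in the sources used here. Peak lists hold no expression values, so neither the cell type nor the loss of the targeted gene could be checked in them.

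The authors called peaks in each library in bins of 200 bp and listed, for each peak, its ChIP reads, its background reads and their ratio after scaling by library size, as a log2 fold. The libraries held 70195 to 125453 peaks over 203 to 416 Mb. Uhrf1 KO replicate 1 stood apart, with the fewest peaks and a ChIP library 0.439 times the size of WT replicate 1, against 0.83 for Uhrf1 KO replicate 2 and 1.12 and 1.11 for Dhx9 KO. The WT and Dhx9 KO lists share the same background reads, whereas the Uhrf1 KO lists use others, so in comparisons with Uhrf1 KO the genotype cannot be told apart from the background used. Reads outside peaks are not listed, and a place without a peak therefore has no read count.

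All 5 retrogenes lie in introns of their host transcripts (mm10). Nap1l5, a histone chaperone-like gene, occupies chr6:58905233-58907126 on the reverse strand, in intron 22 of the 25-exon Herc3 transcript NM_028705.3, which runs on the forward strand and encodes a ubiquitin ligase of the HERC family. Nnat, which encodes the small membrane protein neuronatin, occupies chr2:157558362-157562525, and most of its transcripts start at 157560078, in intron 1 of the 2-exon Blcap transcript NM_016916.3 on the opposite strand. Mcts2, an intronless copy of Mcts1, occupies chr2:152687148-152687946 in intron 4 of the 12-exon transcript NM_010376.4 of H13, which encodes signal peptide peptidase. The internal Inpp5f transcript XM_006507154.3 spans chr7:128688786-128696437 and starts in intron 15 of the 20-exon transcript NM_178641.5 of this inositol polyphosphate phosphatase gene. Peg13, a noncoding RNA, occupies chr15:72805604-72810324 in intron 16 of the 22-exon transcript NM_180662.2 of Trappc9, a subunit gene of a trafficking complex, and both are on the reverse strand.

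The ZFP57 core motif was searched on both strands, as TGCCGC and GCGGCA, without other motifs. It was present in the 300 bases from 250 before to 50 after the start at 3 of the 5 retrogenes, with 2 matches at Nap1l5, 1 at Nnat, 1 at Mcts2 and 0 at Inpp5f and Peg13. Of all 35803 start sites with a full window, 10.3% held at least 1 match, and of the 32851 promoters of the same length that RefSeq gives for GRCm38.p6, 11.6% did. The 300 bases below, for 4 of the retrogenes, were read from the mm10 reference, forward strand, and are shown because they hold the most matches within the stretch covered by both WT peaks, outside untranslated regions. For Mcts2, which had no peak, they are the 300 bases before the start. Capitals mark the motif matches.

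Nap1l5, chr6:58906661-58906960: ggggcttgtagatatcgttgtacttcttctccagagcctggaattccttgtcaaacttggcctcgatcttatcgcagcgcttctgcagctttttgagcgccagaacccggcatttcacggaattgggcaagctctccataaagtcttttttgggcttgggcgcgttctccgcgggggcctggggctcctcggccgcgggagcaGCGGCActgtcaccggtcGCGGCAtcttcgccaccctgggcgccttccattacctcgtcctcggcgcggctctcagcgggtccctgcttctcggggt

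Mcts2, chr2:152686848-152687147: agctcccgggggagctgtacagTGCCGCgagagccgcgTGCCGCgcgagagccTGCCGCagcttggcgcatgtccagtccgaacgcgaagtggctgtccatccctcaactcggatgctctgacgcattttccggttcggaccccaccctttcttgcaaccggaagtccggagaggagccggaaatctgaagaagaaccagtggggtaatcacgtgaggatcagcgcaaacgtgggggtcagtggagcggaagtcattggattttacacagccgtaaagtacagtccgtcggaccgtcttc

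Inpp5f, chr7:128687971-128688270: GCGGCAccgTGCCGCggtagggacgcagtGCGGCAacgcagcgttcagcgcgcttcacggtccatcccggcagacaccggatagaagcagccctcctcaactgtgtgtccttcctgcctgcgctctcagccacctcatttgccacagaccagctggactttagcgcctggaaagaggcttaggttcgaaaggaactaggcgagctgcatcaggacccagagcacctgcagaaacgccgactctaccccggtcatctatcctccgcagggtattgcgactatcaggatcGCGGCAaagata

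Peg13, chr15:72809791-72810090: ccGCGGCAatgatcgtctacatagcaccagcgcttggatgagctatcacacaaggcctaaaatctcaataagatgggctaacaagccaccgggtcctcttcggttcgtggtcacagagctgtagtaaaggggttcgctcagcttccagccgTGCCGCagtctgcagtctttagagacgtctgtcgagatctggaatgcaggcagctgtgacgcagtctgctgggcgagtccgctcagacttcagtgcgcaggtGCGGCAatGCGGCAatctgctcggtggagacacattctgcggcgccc

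These windows held 2 matches at Nap1l5, 3 at Mcts2 and 4 each at Inpp5f and Peg13, with 21 to 28 CpG dinucleotides and a GC content of 57.3 to 61%. Along the forward strand their centres lie at -316, -151, -666 and -384 bp from the start, in the order shown, which places those of Nap1l5 and Peg13 inside the transcribed gene and those of Mcts2 and Inpp5f before the start.

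Within the whole stretch shared by both WT peaks over the start, Nap1l5 had 5 matches in 2000 bp, Nnat 9 in 11400 bp, Inpp5f 6 in 6600 bp and Peg13 8 in 22200 bp. Stretches over other start sites whose length was within 20% of these rarely held as many: 0.879% of 796 for Nap1l5, 0.597% of 335 for Nnat, 0.882% of 680 for Inpp5f and 3.3% of 91 for Peg13. The CpG observed over expected ratio was 0.608 at Nap1l5, 0.339 at Nnat, 0.418 at Inpp5f and 0.236 at Peg13, against a median of 0.203 over all 4353 such stretches. Ratios at least this high occurred in 3.27%, 2.69%, 1.91% and 22% of the stretches of like length, in the same order, so Peg13 stood out by its matches more than by its CpG content. Mcts2 had no WT stretch, although the bases before its start held 3 matches and 28 CpG dinucleotides. The motif itself contains a CpG, and the compared stretches were alike in length only, so the matches cannot be separated from the CpG content. These are descriptions of sequence, without a test.

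**Figure D1:**
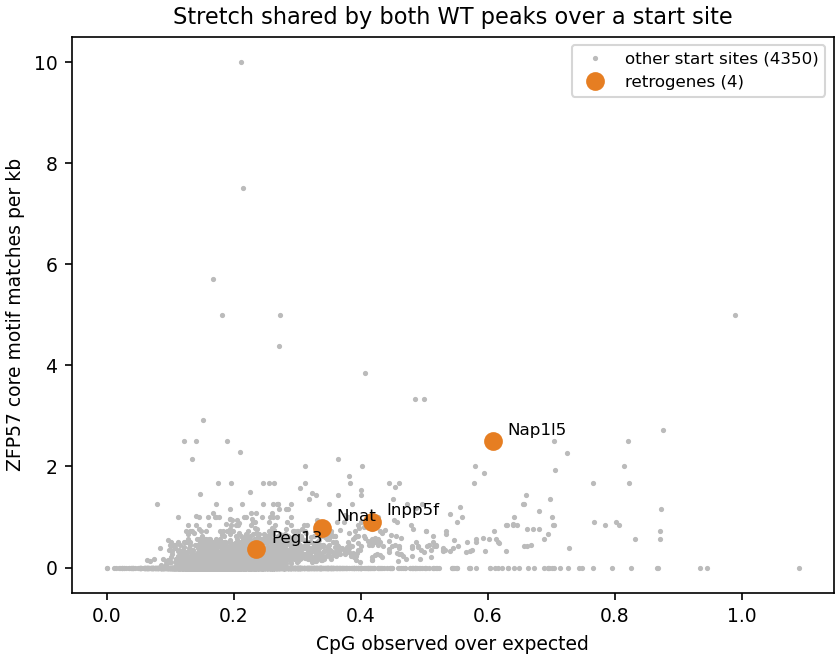
Matches of the ZFP57 core motif per kb (y axis) against the CpG observed over expected ratio (x axis) in the stretch shared by both WT peaks over a start site, with 1 grey point per stretch and the 4 retrogenes with a WT peak in orange. Nap1l5 lies at 2.5 matches per kb and a ratio of 0.608, and Peg13 at 0.36 and 0.236, within the bulk of stretches for the ratio.

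H3K9me3 covered the start of 4 of the 5 retrogenes in both WT libraries, was called at none of these 4 starts in either Uhrf1 KO library, and was called at all 4 in both Dhx9 KO libraries, at a lower log2 fold than in WT. Mcts2 had no peak in any library. For comparison, 4713 of the 35812 start sites of the annotation carried a peak in both WT libraries. The values of each library follow, by retrogene.

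At Nap1l5 the peak over the start held 220 and 230 ChIP reads in WT replicates 1 and 2, at log2 folds of 2.48 and 2.18. In Dhx9 KO replicates 1 and 2 it held 104 and 156 reads, at log2 folds of 1.12 and 0.99. In Uhrf1 KO no peak covered it, and the nearest one lay 25.9 kb from the start in both libraries. The WT and Dhx9 KO values did not overlap, and Nap1l5 showed the largest difference of the 4 retrogenes, -1.28 on the log2 scale between group means. The WT peaks were 2000 and 2800 bp long and the Dhx9 KO peaks 2200 and 3800 bp long, so the lower log2 folds in Dhx9 KO came with peaks of like or greater length. Per kb of peak and WT replicate 1 library size, the reads were 110 and 85.5 in WT and 42.4 and 37 in Dhx9 KO.

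Around Nap1l5, the window of the gene with 5 kb on each side held 3 peaks in each WT library, covering 4126 and 5200 bp. In Dhx9 KO it held 2 and 3 peaks covering 3200 and 6768 bp, which overlapped the WT range. In Uhrf1 KO it held none. Other peaks, with fewer reads than the peak over the start, lay on both sides of it in WT. A flanking peak that begins 3275 bp to the right of the start was called in both WT and both Dhx9 KO libraries, at log2 folds of 1.47 and 1.8 in WT and 1.3 and 1.8 in Dhx9 KO. These ranges overlapped, unlike those of the peak over the start. The flanking peak to the left held 38 and 48 reads in WT, at log2 folds of 2.24 and 1.16. No Dhx9 KO peak overlapped this left peak, although Dhx9 KO replicate 2 had another peak farther left, at chr6:58900201-58902000. The flanks thus did not all stay alike in Dhx9 KO.

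The Nnat start lay in a single wide peak of 12000 and 13600 bp in WT, with 1025 and 968 reads at log2 folds of 1.83 and 1.66. In Dhx9 KO the peak was 8400 and 8000 bp long, with 440 and 570 reads at log2 folds of 0.86 and 1.3. No peak lay within 16.7 kb of the start in either Uhrf1 KO library. The narrowing in Dhx9 KO was mainly on the left side, towards the 3′ end of Blcap: relative to the start, the peak began at -6877 and -9077 bp in WT and at -4077 and -3877 bp in Dhx9 KO, whereas it ended at 5122 and 4522 bp in WT and at 4322 and 4122 bp in Dhx9 KO. Covered bases of the window averaged 11500 ± 424 in WT and 8200 ± 283 in Dhx9 KO (SD, n = 2), a difference beyond the replicate spread, for which the exact two-sided permutation test gave p = 0.333. With 2 libraries against 2 this is the smallest p the test allows, here and in every comparison of single values below.

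At the internal start of Inpp5f the WT peaks held 465 and 577 reads at log2 folds of 1.63 and 1.84. The Dhx9 KO peaks held 332 and 442 reads at log2 folds of 0.95 and 1.2, below both WT values. In Uhrf1 KO there was no peak over the start, and the nearest peak edges lay 11 and 10.6 kb away. The peaks kept nearly the same limits in WT and Dhx9 KO: relative to the start they began at -5585 bp in both WT libraries and at -5385 and -5585 bp in Dhx9 KO, and ended at 1014 and 2014 bp in WT and at 1414 and 2214 bp in Dhx9 KO.

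The Inpp5f window was the only retrogene window with a peak in Uhrf1 KO, in both libraries. This peak of 200 bp, at chr7:128700001-128700200, lies beyond the end of the gene, and the same bin was called in both WT libraries and Dhx9 KO replicate 1. It held 40 and 124 ChIP reads in Uhrf1 KO, beside 43 background reads in each, at log2 folds of 0.44 and 1.18. In WT replicate 2 the bin held 150 ChIP reads beside 63 background reads, so this bin was rich in reads in the background as well.

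Peg13 lay in the widest domain, with peaks of 26400 and 22400 bp over its start in WT that held 2236 and 2005 reads at log2 folds of 2.09 and 2.21. The Dhx9 KO peaks over the start were 16200 and 17000 bp long and held 1089 and 1390 reads at log2 folds of 1.58 and 1.81. The whole window of Peg13 with 5 kb on each side was covered in both WT libraries and in Dhx9 KO replicate 2, and 94.6% of it in Dhx9 KO replicate 1. It held no peak in Uhrf1 KO. The nearest peak lay 41.1 kb from the start in Uhrf1 KO replicate 1 and 7.28 kb from it in replicate 2, where it held 101 reads and covered 3200 bp, or 14.4%, of the stretch shared by the WT peaks.

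Mcts2 and its host H13 had no peak over the start, in the window or in the 28434 bp of the host outside it in any of the 6 libraries. Peaks cover only enriched bins, so H3K9me3 below the caller's threshold would not be seen at this depth.

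**Figure D2:**
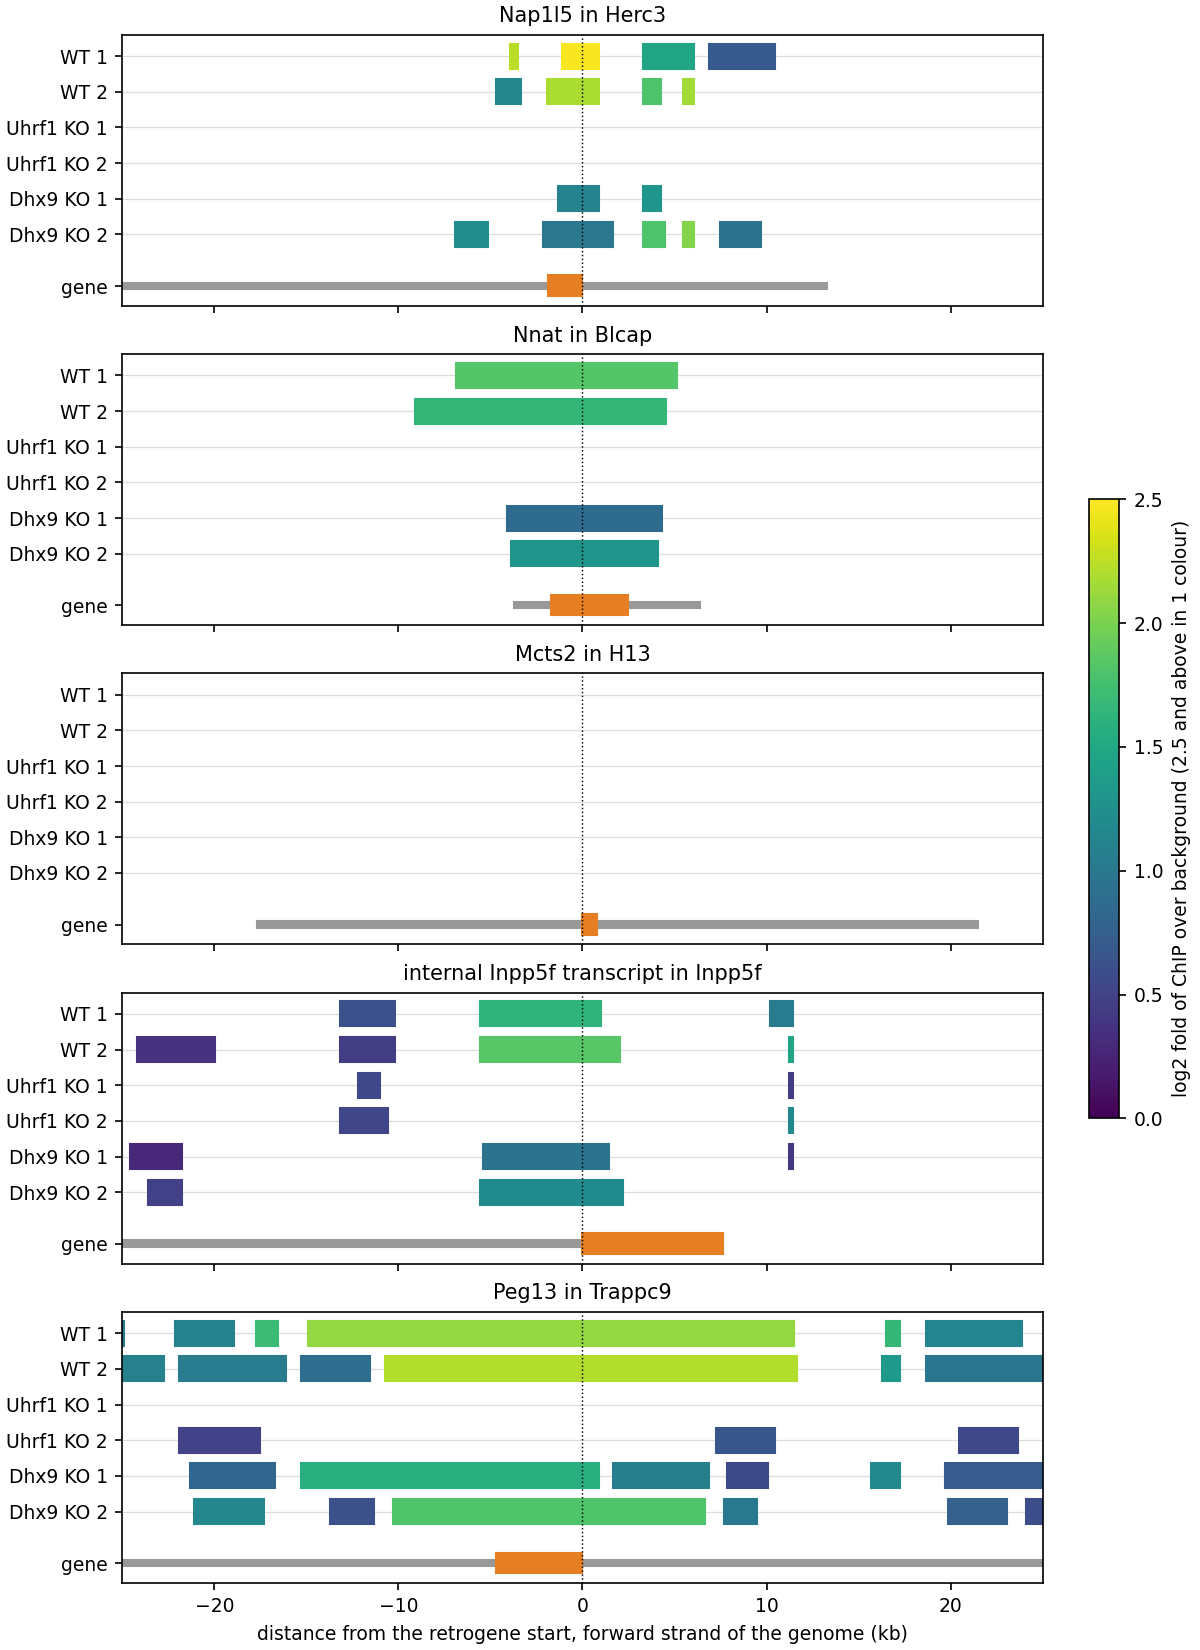
Peaks of the 6 libraries (rows) within 25 kb of each retrogene start (x axis, distance in kb along the forward strand), coloured by their log2 fold over background, with the retrogene in orange and its host gene in grey. The Uhrf1 KO rows are empty over all 5 starts, and the Mcts2 panel holds no peak in any row.

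**Figure D3:**
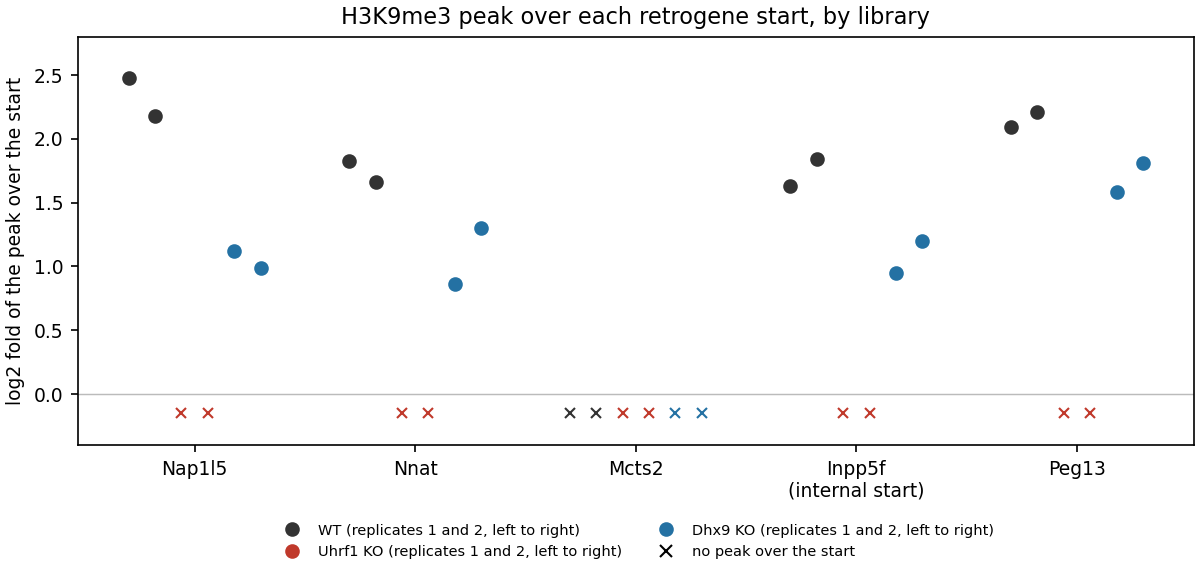
Log2 fold over background of the peak over each retrogene start (y axis), with 1 point per library, and a cross where no peak covers the start. WT values run from 1.63 to 2.48 and Dhx9 KO values from 0.86 to 1.81 over the 4 retrogenes with a peak, and at each of these both Dhx9 KO points lie below both WT points.

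The first comparison asked which retrogenes lose H3K9me3 without UHRF1. Of the 4 starts that carried a peak in both WT libraries, 4 carried none in Uhrf1 KO. Over all 4713 start sites with a peak in both WT libraries the share lost in this way was 36.5%. The WT peaks over the 4 retrogene starts were strong, with log2 folds of at least 1.5, and of the 450 start sites with a log2 fold of at least 1.5 in both WT libraries 12% were lost. By window, 3 of 4 were lost, all but Inpp5f with its 200-bp peak, against 17.6% of 21417 gene windows and 23.7% of the 8026 windows of genes up to 10 kb long. Most start sites of like WT log2 fold thus kept a peak in at least 1 Uhrf1 KO library, and the 4 retrogene starts did not. The authors name these 4 loci among those that lost H3K9me3 in Uhrf1 KO, so the count is not independent of their result.

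The depth of the libraries bears on these losses as follows. Scaled to the library sizes of Uhrf1 KO replicates 1 and 2, the WT peaks would hold 96.6 to 105 and 183 to 199 reads at Nap1l5, the weakest in reads, and 917 to 981 and 1730 to 1860 at Peg13. The smallest peaks called anywhere in these libraries held 14 and 25 reads, which is not a detection limit for stretches as long as these. The caller also asks for enrichment over background, which the lists do not give outside peaks, and counts cover counting error only.

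The same 4 starts carried a peak in both Dhx9 KO libraries, so 0 of 4 were lost, against 13.7% of the 4713 start sites and 5.33% of the 450 with a log2 fold of at least 1.5. By window 0 of 4 were lost, against 2.9% of gene windows and 3.9% of those of genes up to 10 kb long. Between the knock-outs, 4 of 4 starts with a peak in both Dhx9 KO libraries had none in Uhrf1 KO, where 27.6% of 3534 start sites did.

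The log2 fold at the start was lower in Dhx9 KO than in WT at 4 of 4 retrogenes in both libraries. Among the 2741 start sites with a peak in all 4 libraries, 37.5% were lower in this way, and 69.5% of the 364 with a WT log2 fold of at least 1.5, so a lower value was common among strong sites. Group means were 2.33 ± 0.21 in WT and 1.05 ± 0.09 in Dhx9 KO at Nap1l5, and 1.75 ± 0.12 and 1.08 ± 0.31 at Nnat (SD, n = 2). They were 1.74 ± 0.15 and 1.08 ± 0.18 at Inpp5f, and 2.15 ± 0.08 and 1.69 ± 0.16 at Peg13. The differences of -1.28, -0.66, -0.66 and -0.46 compare with a median of -0.38 over the 364 strong sites, whose 5th percentile was -0.98, and with -0.13 over all 2741. Nap1l5 was therefore below the 5th percentile of strong sites, and the other 3 were within the range of strong sites. Nnat and Inpp5f nearly coincide on both axes of the plot of these means.

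**Figure D4:**
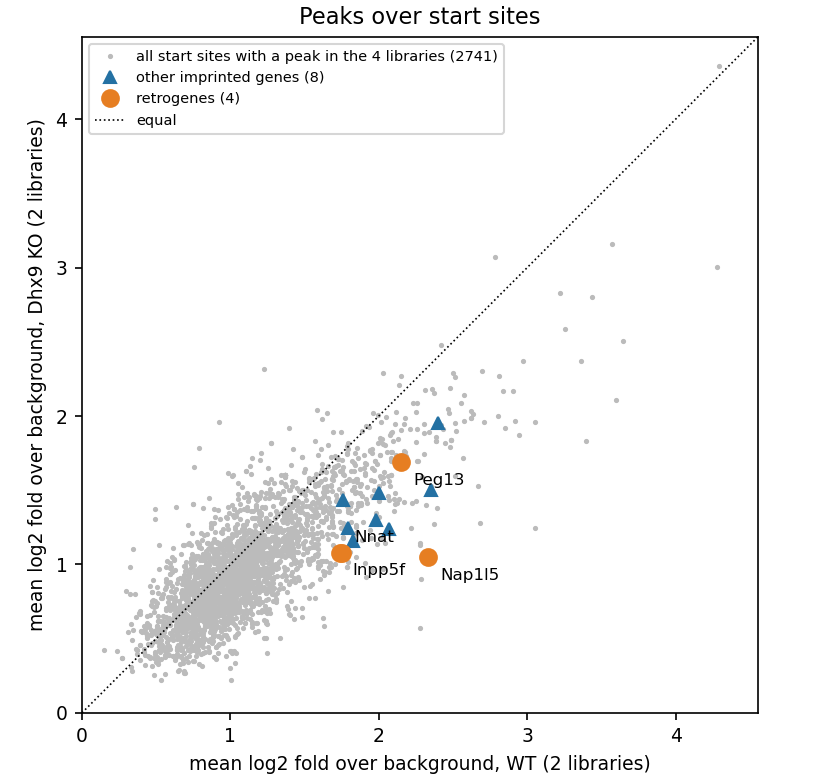
Mean log2 fold over background of the peak over each start site in Dhx9 KO (y axis) against WT (x axis), 2 libraries each, for the 2741 sites with a peak in all 4 libraries (grey), 8 other imprinted genes (blue triangles) and 4 retrogenes (orange). All 4 retrogenes lie below the dotted line of equal values, Nap1l5 farthest from it at 2.33 in WT and 1.05 in Dhx9 KO.

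Read counts were tested with edgeR, with the called length as offset, so that a change is one of reads per called length. The main test took regions in which peaks of each of the 4 libraries covered at least 80% of the region. Between Dhx9 KO and WT, 4721 regions were tested, of which 0.572% were lower and 0.0424% higher at an adjusted p under 0.05. Of the members, 3 regions were among them and 0 passed. The 80% rule leaves out regions whose called extent differs between libraries, as at the starts of Nap1l5, Nnat and Peg13. It thus favours regions of unchanged extent. The region over the internal start of Inpp5f had a log2 change of -0.47 (SE 0.15, adjusted p = 0.189 by edgeR's quasi-likelihood test), the Herc3 body region -0.01 (SE 0.19, adjusted p = 0.991) and a Trappc9 body region at chr15:72661201-72688800 -0.15 (SE 0.13, adjusted p = 0.73). The Inpp5f call depended on the libraries used: by edgeR its adjusted p was 0.00607 without Dhx9 KO replicate 1 and 0.00109 without replicate 2, with log2 changes of -0.44 and -0.51, and 1 and 0.999 without WT replicates 1 and 2. Each of these fits leaves 1 library in an arm, whose spread is assumed to be that of the other arm. Of all 4721 regions, 10.3% and 15.7% passed without Dhx9 KO replicates 1 and 2, against 0.614% with all 4 libraries.

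The other retrogene starts entered only the fit over all 58456 regions called in every library, where no member passed the adjusted threshold and 6.79% of regions were lower and 3.2% higher at an unadjusted p under 0.05. There the log2 change was -1.15 (SE 0.21, unadjusted p = 0.00047, adjusted p = 0.145) at Nap1l5, -0.35 (SE 0.12, adjusted p = 0.388) at Peg13 and -0.21 (SE 0.19, adjusted p = 0.769) at Nnat. Per called length Nap1l5 thus had the lowest value of the 4 retrogene starts. The Nnat value does not include the narrowing of its region: without regard to length, the reads in it went from 1205 and 1061 in WT, over 18800 and 16200 called bp, to 572 and 570 in Dhx9 KO, over 12800 and 8000 called bp. Between Uhrf1 KO and WT, 2535 regions met the 80% rule, of which 5.52% were lower and 3.23% higher, and no member region was among them. The retrogene starts had no peak in Uhrf1 KO, and the 11 member regions with a peak in all 4 libraries were covered over less than 80% in at least 1 library. In the edgeR fit over all 40617 regions called in every library, where 5.46% were lower and 6.87% higher at an unadjusted p under 0.05, none of these 11 passed the adjusted threshold. The lowest adjusted p was that of the Trappc9 region at chr15:72661201-72688800, with a log2 change of -0.41 (SE 0.16, unadjusted p = 0.0338, adjusted p = 0.369), and the Herc3 region had -0.24 (SE 0.33, adjusted p = 0.811).

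The start of the host gene was without a peak in all 6 libraries for each of the 5 hosts. Of all 35812 start sites, 4713 had a peak in both WT libraries, so a start without a peak was the common case. At Blcap the WT domain over Nnat ended 1.26 and 1.86 kb short of the Blcap start, and in Dhx9 KO 2.06 and 2.26 kb short of it, while the nearest peaks in Uhrf1 KO lay 10.5 and 10.3 kb away. At Herc3 the nearest peak lay 3.05 to 4.45 kb from the start in all libraries. The distance was 5.98 to 6.38 kb at the Inpp5f start, 6.06 to 21.5 kb at H13 and 2.6 to 17.2 kb at Trappc9.

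Blcap lies wholly within the Nnat window. Outside the windows, the hosts Herc3, Inpp5f and Trappc9 had 37 regions with a peak in both WT libraries in the comparison with Uhrf1 KO, of which 11, or 29.7%, had none in Uhrf1 KO. The share over all 80160 merged regions was 24.2%. In the comparison with Dhx9 KO 3 of 32 such regions, or 9.38%, had none in Dhx9 KO, against 6.99% of 78833. Host bodies were therefore somewhat above the share of all regions in both comparisons when all libraries were used. Trappc9 supplied 34 of the 37 and 29 of the 32 regions, so these shares mostly describe 1 gene. Without Uhrf1 KO replicate 1 the count in Uhrf1 KO was 14 of 38, or 36.8%, against 25.7% of all regions under the same setting. Without Uhrf1 KO replicate 2 it was 27 of 39, or 69.2%, against 48%. Without WT replicates 1 and 2 it was 24 of 54 and 18 of 48, or 44.4% and 37.5%, against 34.8% and 34% of all regions. Without Dhx9 KO replicate 1 the count in Dhx9 KO was 14 of 37, or 37.8%, against 17.6% of all regions. Without Dhx9 KO replicate 2 it was 4 of 35, or 11.4%, against 16% of all regions. These differences from the share of all regions were not tested. Without WT replicates 1 and 2 the count in Dhx9 KO was 6 of 41 and 6 of 44, against 15% and 14% of all regions.

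In Herc3, a region at chr6:58879401-58881200, 25.9 kb from the Nap1l5 start, was called in all 6 libraries. It held 92 and 94 reads in WT, 34 and 115 in Uhrf1 KO and 99 and 85 in Dhx9 KO, at log2 folds of 1.29 and 0.91, 0.82 and 1.69, and 0.77 and 1.03. These ranges overlapped, so within 1 host gene a peak was kept in Uhrf1 KO where the peak at the retrogene start was not.

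In Inpp5f, the region at chr7:128675601-128678600, before the domain over the internal start, was called in WT with 122 and 104 reads and in Uhrf1 KO with 27 and 84 reads, but in neither Dhx9 KO library. Its log2 folds of 0.61 and 0.44 in WT and 0.54 and 0.52 in Uhrf1 KO were low for all 4. A region at chr7:128659401-128660800, with 66 and 54 reads in WT, had no peak in Uhrf1 KO and 67 reads in Dhx9 KO replicate 1. Nearer the start of the gene, a region at chr7:128620001-128622600 was called in both Dhx9 KO libraries, with 84 and 85 reads at log2 folds of 1.07 and 1.03, and in no other library. It was the only gained region, 1 of 23 host regions with a peak in both Dhx9 KO libraries, where 8.74% of 73423 regions were gained. In Uhrf1 KO 0 of 10 were gained, against 8.52% of 49591.

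Trappc9 carried H3K9me3 over most of its length in WT. Outside the Peg13 window, peaks covered 58.8 and 61% of its 456904 bp in WT, 5.82 and 33.4% in Uhrf1 KO and 52.2 and 34.9% in Dhx9 KO. Both Uhrf1 KO values were below both WT values but differed widely from each other, 19.6 ± 19.5% against 59.9 ± 1.55% in WT (SD, n = 2, exact two-sided permutation p = 0.333), and replicate 1 is the library with the fewest reads. When only peaks with a log2 fold of at least 1 were kept, the difference from WT changed from -40.31 to -25.47 percentage points, and with equal numbers of peaks per library to -26.45. Without Uhrf1 KO replicate 1 it was -26.54, and without replicate 2 it was -54.07. The Dhx9 KO mean of 43.6 ± 12.2% differed from WT by -16.31 points, and by -7.66 and -24.95 points with Dhx9 KO replicate 1 or 2 alone. Over all of chromosome 15, peaks covered 17.2 and 16.7 Mb in WT. They covered 7.07 and 13.2 Mb in Uhrf1 KO and 16.5 and 15.5 Mb in Dhx9 KO. Coverage was thus lower over the whole chromosome as well, but in each knock-out library by less in proportion than over Trappc9, and only slightly in Dhx9 KO. Whether Trappc9 differed from the chromosome was not tested.

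Of 34 Trappc9 regions with a peak in both WT libraries, 10 had none in Uhrf1 KO and 8 had a peak in all 4 libraries. Of 29 in the comparison with Dhx9 KO, 2 had none and 20 had a peak in all 4. The most covered stretch of 50 kb, centred at -146 kb from the Peg13 start, was covered over 91.6 and 93.2% in WT, 13.6 and 77.2% in Uhrf1 KO and 86.4 and 73.6% in Dhx9 KO. The stretch holding the Peg13 start was covered over 77.6 and 83.2% in WT, 0 and 21.2% in Uhrf1 KO and 71.2 and 64.4% in Dhx9 KO. In Uhrf1 KO replicate 2 the Trappc9 body thus kept peaks to both sides of Peg13, whereas the Peg13 start had none.

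**Figure D5:**
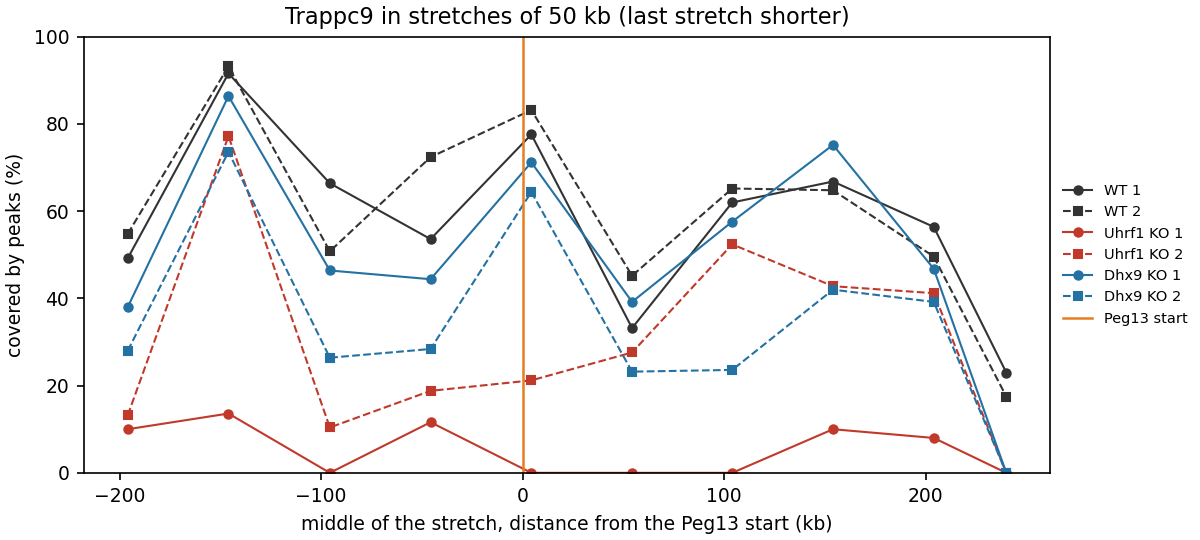
Share of Trappc9 covered by peaks (y axis, %) in consecutive stretches of 50 kb, against the distance of their middle from the Peg13 start (x axis, kb), with 1 line per library. Uhrf1 KO replicate 2 reaches 77.2% in the stretch at -146 kb and 21.2% in the stretch that holds it, and Uhrf1 KO replicate 1 stays at or below 13.6%.

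Another 16 imprinted genes served for comparison. Of these, 8 had a peak over the start in both WT libraries: Peg3, Mest, Plagl1, Kcnq1ot1, Airn, Nespas, H19 and Meg3. All 8 had none in Uhrf1 KO and a peak in both Dhx9 KO libraries. The authors name all 8 among imprinted loci that lost H3K9me3 in Uhrf1 KO, so this count is not independent of their result. Of the 450 start sites with a log2 fold of at least 1.5 in both WT libraries, 12% were lost in Uhrf1 KO and 5.33% in Dhx9 KO. At all 8 both Dhx9 KO log2 folds were below both WT values, as at 69.5% of the 364 such sites with a peak in all 4 libraries. The median difference was -0.60, with a range of -0.85 to -0.31. The retrogenes other than Nap1l5 lay within this range. The other 8 genes, Snrpn, Peg10, Grb10, Zrsr1, Commd1, Rasgrf1, Zdbf2 and Slc38a4, had no peak over the start in any library. Their windows held peaks in both WT libraries and in Uhrf1 KO replicate 2. All but that of Zrsr1, which lies within Commd1, also held peaks in Uhrf1 KO replicate 1. Of the 8 with a start peak, Mest and Nespas had no window peak in either Uhrf1 KO library. By the 6 log2 folds at the start, with 0 where no peak was called, the genes nearest to the mean of the 4 retrogenes among the 4713 start sites were Mest, at a distance of 0.18, Kcnq1ot1 at 0.22, Hymai and Plagl1 at 0.31 and Gm34081 at 0.38. Hymai and Plagl1 start in the same peaks, and Meg3, with the same 6 values as Gm34081, is tied with it at this distance. Mest had log2 folds of 2.1 and 1.86 in WT and 1.24 and 1.37 in Dhx9 KO, beside means over the 4 retrogenes of 2.01 and 1.97 in WT and 1.13 and 1.33 in Dhx9 KO.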

How the data were processed

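H3K9me3 ChIP-seq peak lists of 6 libraries were used, 2 per genotype, grouped by the sample titles. Per the submitters' notes and methods, reads were aligned to mm10 with Bowtie2 2.3.4.3, subsampled, and peaks were called per library with epic2 (named SICER 0.0.51 in the notes), with duplicates kept. The authors' lists hold raw counts, for each peak, of reads from the ChIP and from the background. The p-value of each peak and its false discovery rate were deposited as the authors' caller gave them. The deposited log2 fold is ChIP over background, relative to library sizes, and the deposited score is this value times a constant, capped, and was not used.

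Positions are 1-based. The deposited annotation holds a reporter insert of 2762 bp on chromosome 2, which was subtracted; 2371 of 2656 chromosome 2 genes then matched RefSeq GRCm38.p6 at their start or end, and 0 did before. A retrogene start was the start shared by most of its transcripts, and for Inpp5f that of the transcript starting farthest downstream, at least 10 kb into the gene. A place was lost when both libraries of the reference group and neither of the other had a peak over it. Members, lists and the rule for the named genes (the 9 members, 16 other imprinted genes, and the 5 genes nearest by log2 folds) were chosen with earlier results of these data known.

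Peaks of 4 libraries were merged into regions, and ChIP reads of regions covered over at least 80% in each library were tested with edgeR 4.0.16 in R 4.3.3 (quasi-likelihood test with the called length as offset, TMM on reads per called length, Benjamini-Hochberg adjustment, 0.05), with DESeq2 1.42.0 as an alternative. Tested on simulated data, 172 and 180 of 200 regions changed 2-fold were recovered for Uhrf1 KO and Dhx9 KO, with 6 and 10 false calls among 2535 and 4721 regions. The simulated counts had a fixed dispersion and equal called lengths. They checked the code and do not give the power in these libraries. Single values were compared by exact permutation. Replicates shared 0.131 to 2.63% identical counts in peaks of identical limits, and none was a copy. The labels number the replicates without naming separate cultures or clones, so p-values measure the spread between these libraries. Scripts used scipy 1.17.1, pandas 2.3.3 and numpy 2.4.6 under Python 3.11.15, with matplotlib 3.10.9. Alternatives were stricter peaks, equal numbers of peaks, other flanks and distances, other scalings and filters, a replicate block and leaving out each library. The comparison with start sites of a log2 fold of at least 1.5, the alternatives for single log2 folds and for Trappc9, and the shares of all regions without single libraries, were chosen after seeing the data. The sequence at Nnat is not reported here.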

Additional observations from a re-analysis of the deposited data

How the results depend on the processing

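The 4 starts lost in Uhrf1 KO and the 0 starts and windows lost in Dhx9 KO had the same counts under every alternative run for them (stricter peaks, 70195 peaks in each library, other flanks or distances, at least 1 kb covered, and leaving out each library). Windows lost in Uhrf1 KO, 3 of 4, were 4 with flanks of 0 or 2 kb or with at least 1 kb covered, and 2 with flanks of 10 kb. Between the knock-outs 4 starts were lost under the same alternatives except among peaks with a log2 fold of at least 1, where 1 of 1 start was lost, because only Peg13 met it in both Dhx9 KO libraries. Host regions lost in Uhrf1 KO ranged from 14 to 27 without single libraries, and those lost in Dhx9 KO from 4 to 14. At a false discovery rate of 1e-10 or less, 13 of 21 were lost in Uhrf1 KO and 6 of 21 in Dhx9 KO. When the log2 fold had to reach 1, the counts were 10 of 15 and 5 of 15, and with equal numbers of peaks 11 of 19 and 5 of 18. The share of all regions under these peak filters was not computed, so these counts cannot be set against it. Such counts rest on fewer libraries or peaks by construction.

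The 222 of 2535 regions with changed reads in Uhrf1 KO (140 lower, 82 higher by edgeR) became 111 with DESeq2 (82 lower, 29 higher), 51 of 902 with all 6 libraries in one fit (42 lower, 9 higher), 0 with equal library sizes (5 at an unadjusted p under 0.05, and a median log2 change of -0.23) and 0 over all regions called in every library (2219 lower and 2789 higher at an unadjusted p under 0.05), and 43 to 358 without single libraries (57, of which 54 lower, and 43, of which 38 lower, without WT replicates 1 and 2, and 358, of which 200 lower, without Uhrf1 KO replicate 1). The 29 of 4721 in Dhx9 KO (27 lower, 2 higher) became 11 with equal library sizes, 14 without the length offset, 2 of 58456 over all regions and 9 of 902 with all 6 libraries, and 9 to 740 without single libraries (12 and 9 without WT replicates 1 and 2, and, without Dhx9 KO replicates 1 and 2, 488 with 258 lower and 230 higher and 740 with 507 lower and 233 higher). Fits without a library leave 1 arm with 1 library, assumed to vary like the other. The cause was not tested. Deviations of same-numbered libraries correlated at 0.06 and -0.07. Each group gives only 1 such difference, so this cannot show whether same-numbered libraries were handled together. With a replicate block 224 regions changed in Uhrf1 KO and 81 in Dhx9 KO (65 lower, 16 higher), and no member region changed its call. The Herc3 region, at -0.01 in Dhx9 KO, ranged from -0.10 to 0.08 without single libraries (0.08 without Dhx9 KO replicate 2 and 0.03 without WT replicate 1). Of 64 alternative values for single members, 58 kept their direction and side of the threshold or stayed within the replicate SD.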
